A study of Mus musculus with 2 samples.

Results

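Foamy Trem2 macrophages are the lipid-loaded macrophages of the atherosclerotic plaque, named after Trem2, a surface receptor for lipids and lipoproteins. They were picked here from single-cell RNA-seq of mouse aorta by an expression gate. A cell barcode had to hold at least 1000 UMIs (unique molecular identifiers, each marking 1 captured RNA molecule), with at most 10% of them mitochondrial. It also had to hold a UMI of at least 4 of 9 macrophage genes (C1qa, C1qb, C1qc, Csf1r, Cd68, Fcer1g, Adgre1, Ms4a7 and Lyz2), which is called the macrophage criterion below. Then 3 sets of 6 genes were counted by presence of a UMI. The T genes were Trem2, Gpnmb, Zmynd15, Itgax, Atp6v0d2 and Syngr1, the R genes (resident-like) were Mrc1, Ccl8, Ccl12, Negr1, Clec4b1 and Fcgr4, and the I genes (monocyte-derived) included Chil3, F10, Cxcl3, Ly6i and Mmp19. A member had at least 2 T genes, and more T genes than R genes and than I genes. The gate found 6545 members, 2785 in the library labelled WT and 3760 in the library labelled EC-iCD45KO. They were part of 28040 barcodes that met the macrophage criterion, of 49076 that met the depth and mitochondrial limits and of 70127 barcodes in all.

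Macrophages that take up modified lipoproteins break the particles down in the lysosome, store the cholesterol as esters in droplets, and pass it on through the transporters Abca1 and Abcg1 under control of LXR nuclear receptors. TREM2 signals through the adaptor TYROBP and the kinase SYK, and is known for a lipid-handling programme in macrophages of plaque, fat tissue and brain. In mouse plaques these cells are known as foamy and as poor in inflammatory cytokine RNA next to their non-foamy neighbours. RNA does not measure lipid, so the word foamy stands here for the gate alone.

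Both groups were ApoE-/- mice on the C57BL/6 background fed a Western diet, a standard model of atherosclerosis. The WT group carried no further deletion that the labels name. The EC-iCD45KO group carried in addition a deletion of CD45 (gene Ptprc), a tyrosine phosphatase of leukocytes, that tamoxifen induces in endothelial cells (EC), so the macrophages were not the targeted cells. Digested aortic cells were bound to CD31 beads before 10x Genomics library construction, and each group gave 1 library. The labels do not name the Cre driver, age, sex, time on diet, number or pooling of mice, or whether WT mice received tamoxifen. The study asks what endothelial CD45 does in atherosclerosis, and the comparison of libraries below describes macrophages caught in that preparation. With 1 library per group no difference between libraries has a replicate check, a preparation difference and a genotype difference cannot be told apart, and no p-value is given. Intervals in parentheses are 95% intervals that cover counting error only.

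The WT library held 39849 barcodes and 92058043 UMIs and the EC-iCD45KO library 30278 barcodes and 88967918 UMIs. Members were deeper than the median barcode, with a median of 3103 UMIs in WT and 3833 in EC-iCD45KO. Their summed UMIs, over which each level below was taken, came to 11949326 in WT and 22112644 in EC-iCD45KO. A level in CPM is the UMIs of a gene per 1000000 UMIs of the barcodes summed. The libraries shared 340 barcode sequences, of which 2 were members in both.

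RNA of other cell types was present in members and differed between the libraries. At least 2 markers of the same other cell type had a UMI in 63.88% of WT members and 48.11% of EC-iCD45KO members. Among the other barcodes of the macrophage criterion it was 81.59% and 61.49%. The types counted were endothelial, smooth muscle, fibroblast, T/NK, B and plasma cells. Dendritic cells and neutrophils were not counted, here or where barcodes with markers of another type are left out below. The markers of B cells summed to 673.3 CPM in WT members and 33.78 CPM in EC-iCD45KO members, next to 6655 and 7316 CPM in barcodes gated as B cells. T/NK markers summed to 213.7 and 26.91 CPM and plasma cell markers to 926.4 and 238.4 CPM. The smooth muscle markers went the other way, from 492.2 CPM in WT to 1302 CPM in EC-iCD45KO members. Fibroblast markers (1107 and 1154 CPM) and endothelial markers (268.9 and 227.7 CPM) were closer. Dendritic markers were low at 63.69 and 56.48 CPM. Every marker of the 7 lists summed here had a UMI in members of both libraries. The part of this RNA in the results below was not tested except where a value without such barcodes is given.

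Foamy Trem2 macrophages made up 20.92% (20.23 to 21.62) of macrophage-criterion barcodes in WT and 25.53% (24.83 to 26.25) in EC-iCD45KO. The difference was 4.619 percentage points (3.631 to 5.604). It turned round without barcodes that held 2 markers of another type, at 34.16% in WT and 31.6% in EC-iCD45KO, a difference of -2.559 points. With at least 2000 UMIs per barcode the shares were 31.12% and 31.8%, a difference of 0.6765 points. With the gate read on 1000 UMIs per barcode the shares were 12.55% and 16.36%, and with at least 3 T genes 10.16% and 15.62%. The order of the shares therefore depended on which barcodes were kept. The resident-like gate held 2022 WT and 3376 EC-iCD45KO barcodes and the monocyte-derived gate 224 and 581. Members were 9.39% of all filtered WT barcodes and 19.36% of filtered EC-iCD45KO barcodes, while the macrophage criterion was met by 44.89% and 75.84% of them. Outside the macrophage criterion, 1.193% of WT and 2.11% of EC-iCD45KO barcodes held 2 or more T genes.

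Many members sat at the edge of the gate. In WT 1432 members (51.42%) had 2 T genes, 830 had 3, 345 had 4, 156 had 5 and 22 had all 6. In EC-iCD45KO the numbers were 1460 (38.83%), 1207, 711, 315 and 67. Depth went with this count. Median UMIs per member went from 2232 at 2 T genes to 8640 at 6 in WT, and from 2048 to 14477 in EC-iCD45KO. Members with 2 T genes had Trem2 at 785.1 CPM in WT and 636.7 CPM in EC-iCD45KO. The barcodes just outside, with 1 T gene and no R or I gene, numbered 1898 and 1251 and had Trem2 at 497.5 and 318.0 CPM. For Spp1, which the gate did not read, the inside and outside levels were 4654 and 4634 CPM in WT and 7799 and 5289 CPM in EC-iCD45KO. For Lgals3, galectin-3, they were 1986 and 1167 CPM in WT and 2527 and 1377 CPM in EC-iCD45KO, and for Fabp5, a fatty-acid-binding protein, 359.8 and 254.6 CPM in WT and 567.4 and 399.7 CPM in EC-iCD45KO. So at the WT edge of the gate Lgals3 and Fabp5 were higher inside and Spp1 was level. A further 357 WT and 867 EC-iCD45KO barcodes had 2 or more T genes tied with R or I genes, and 184 and 692 had fewer T than R or I genes.

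**Figure D1:**
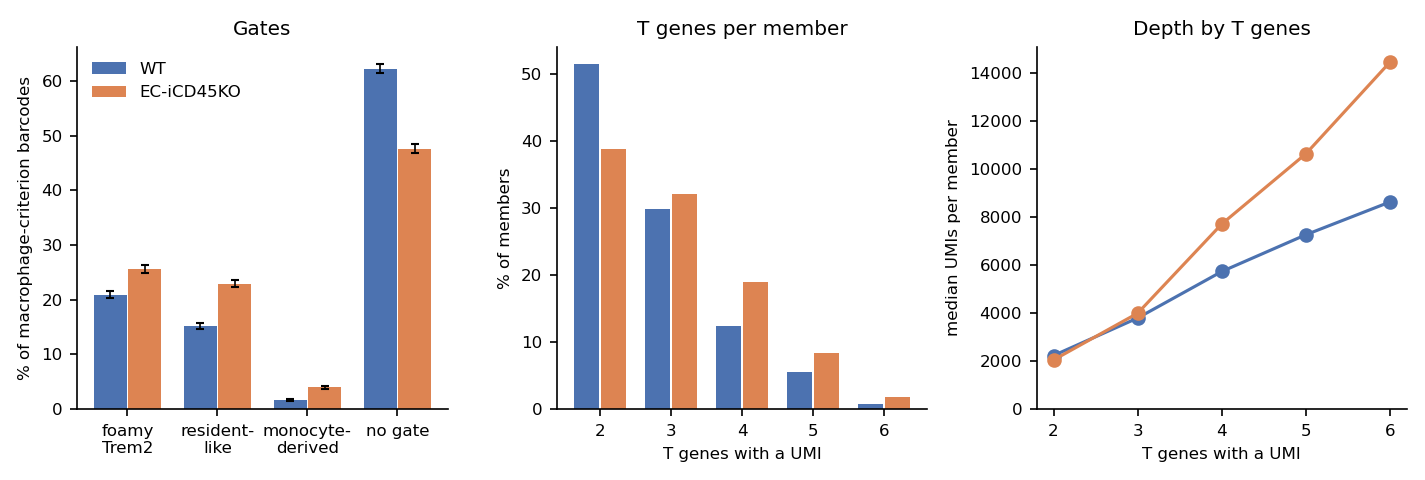
Left, share of macrophage-criterion barcodes (%) in each gate, with exact 95% intervals for counting error; middle, share of members (%) by number of T genes with a UMI; right, median UMIs per member by number of T genes. WT is blue and EC-iCD45KO orange, 1 library each; the foamy Trem2 share was 20.92% and 25.53%, and deeper members held more T genes.

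The genes that define the gate were read as a description. For Trem2 (chr17:48346401-48354147, plus strand, GRCm38), WT members had 1184 CPM (1165 to 1204) and EC-iCD45KO members 1031 CPM (1018 to 1045). In the resident-like gate it stood at 344.5 and 380.0 CPM, in the monocyte-derived gate at 148.2 and 203.5 CPM. A UMI of Trem2 was seen in 91.35% and 91.57% of members. With each barcode thinned to 1000 UMIs, Trem2 was seen in 62.62% of WT and 60.59% of EC-iCD45KO members, against 24.98% and 29.12% of resident-like barcodes and 2.237% and 2.462% of barcodes gated as B cells, which should lack Trem2. Trem2 was thus not limited to the members among macrophages, and lay above the B cell background in the resident-like gate.

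Gpnmb, a lysosome-associated glycoprotein (chr6:49036546-49070929, plus strand), stood at 480.9 CPM in WT and 582.5 CPM in EC-iCD45KO members, and at 17.22 and 24.81 CPM in the resident-like gate. No Gpnmb UMI was seen in 58.53% of WT and 53.94% of EC-iCD45KO members, which at these depths does not show that they lacked its RNA. Atp6v0d2, an osteoclast-type subunit of the lysosomal proton pump (chr4:19876841-19922605, minus strand), stood at 85.44 and 86.83 CPM, and was seen in 18.64% and 17.82% of members. Itgax, the integrin chain CD11c, stood at 147.8 CPM in WT and 191.4 CPM in EC-iCD45KO. Zmynd15, a zinc finger protein, stood at 182.4 and 215.7 CPM. Syngr1, a vesicle membrane protein, stood at 275.2 and 243.1 CPM. The 6 log2 ratios of EC-iCD45KO over WT ran from -0.20 for Trem2 to 0.37 for Itgax, so no T gene differed by 2-fold between libraries. Zmynd15 overlaps Cxcl16 and Syngr1 overlaps Rpl3 in the annotation, and reads of such a pair may be shared.

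The other genes of the rule were read next. Among macrophage genes, C1qa, a complement C1q chain, stood at 4584 and 4741 CPM in members and 3733 and 4480 CPM in the resident-like gate. Lyz2, the myeloid lysozyme, stood at 6682 CPM in WT and 13541 CPM in EC-iCD45KO members, and has a near-identical neighbour, Lyz1, whose reads may be shared. R and I genes were low without being at 0. Mrc1, a mannose receptor, had 32.55 CPM in WT and 85.20 CPM in EC-iCD45KO members, against 585.8 and 568.3 CPM in the resident-like gate. Chil3, a chitinase-like protein, had 3.60 and 11.53 CPM, against 325.4 and 401.0 CPM in the monocyte-derived gate. Apoe itself, disrupted in both groups, had 12.9 and 11.6 CPM in members. C1qa and Lyz2 belong to the macrophage criterion, and Mrc1 and Chil3 to the R and I genes, so the rule itself bears on these levels and they are no check of the label. Lyz2 was higher in EC-iCD45KO members, as were 4 R genes and 3 I genes that averaged at least 10 CPM.

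**Figure D2:**
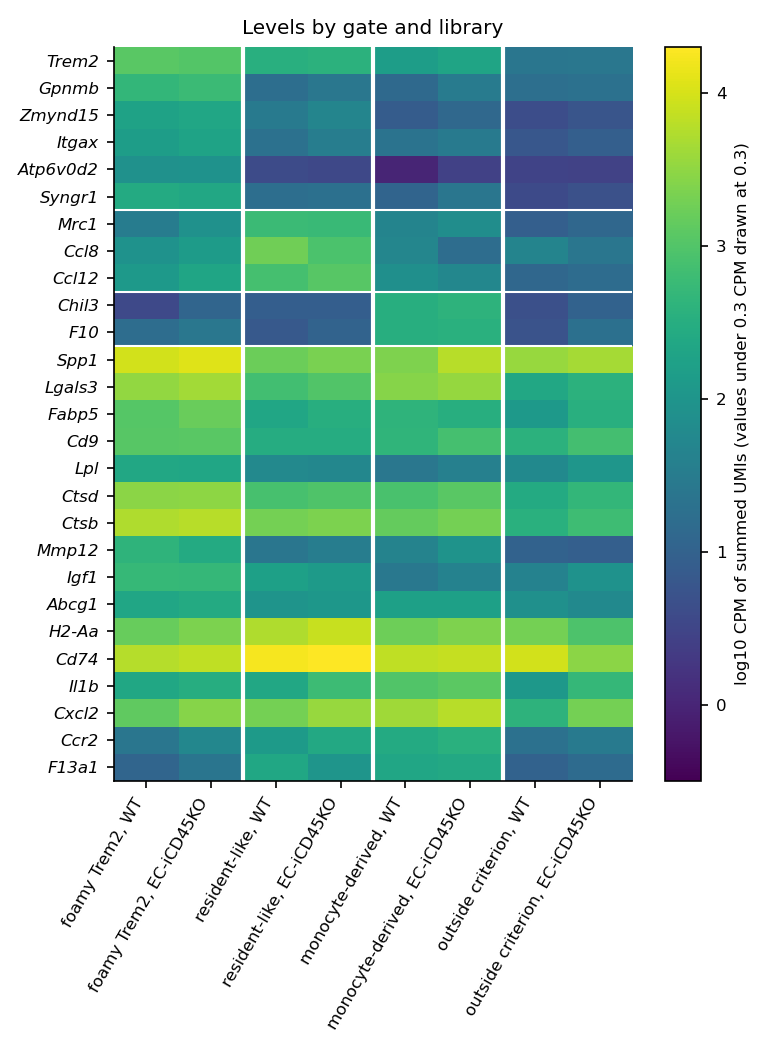
Heat map of log10 CPM of summed UMIs (colour) for 27 genes (rows) in 4 sets of barcodes of each library (columns); white lines part the T, R, I and remaining genes. T genes are brightest in the foamy Trem2 columns, where Trem2 reads 1184 CPM in WT, and the MHC class II gene H2-Aa is brightest in the resident-like columns.

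Genes that the rule did not use were then compared with the other barcodes of the macrophage criterion, within each library. Every gene of these barcodes bears on the gate, so the comparison describes the members and supports nothing by itself. Of 8623 genes that averaged at least 10 CPM, 67 (0.777%) were at least 2-fold higher in members in both libraries, and 347 (4.02%) at least 2-fold lower. The split depended on scaling. TMM factors, which correct for a few abundant genes, added 0.19 (WT) and 0.16 (EC-iCD45KO) to every log2 ratio and gave 120 higher and 115 lower, and a mean over single barcodes gave 36 and 58. Without barcodes that held 2 markers of another type the split was 95 and 270. The median gene sat at -0.10 in both libraries.

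The largest excess belonged to Mmp12, the macrophage elastase, with 416.2 CPM in WT members against 53.50 CPM in the other macrophage barcodes, and 276.8 against 51.73 CPM in EC-iCD45KO. Its log2 ratios were 2.96 and 2.42. Fabp5 gave 1077 against 252.7 CPM in WT and 1583 against 404.0 CPM in EC-iCD45KO. Igf1, a growth factor, gave 518.3 against 157.4 CPM and 487.8 against 140.9 CPM. Lpl, lipoprotein lipase, gave 237.4 against 77.92 CPM and 216.1 against 64.84 CPM. Each of these genes was higher in members in both libraries by more than its counting error. They were named for the size of this same ratio, so that is no separate support.

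Spp1, osteopontin, gave 9304 against 2895 CPM in WT and 11834 against 3798 CPM in EC-iCD45KO, log2 ratios of 1.68 and 1.64. The others among the 12 genes with the largest excess were Folr2 (a folate receptor), Myo16, Cdk18, Anpep (an aminopeptidase), Ctsl, Pld3 and Ctsd, with log2 ratios between 1.62 and 2.08. Folr2 is known from resident vascular macrophages. It had 143.9 and 111.4 CPM in members and 66.26 and 33.45 CPM in the resident-like gate. In barcodes of the macrophage criterion that fell in no gate it had 25.43 and 23.98 CPM, so Folr2 was highest in members and next highest in the resident-like gate.

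Lipid-associated macrophage genes, the set known from fat tissue and plaque, were taken as a list of 24 genes without those of the rule. In both libraries 14 were at least 2-fold higher in members than in the other macrophage barcodes and none was lower, with a median log2 ratio of 1.37 in WT and 1.15 in EC-iCD45KO, beside 0.777% of all genes higher and 4.02% lower. Lgals3 stood at 3387 CPM in WT members and 1012 CPM in the others, and at 4295 and 1582 CPM in EC-iCD45KO. Cd9, a tetraspanin, stood at 1117 against 455.7 CPM and 1181 against 535.1 CPM. Cd63, a tetraspanin of the late endosome, stood at 1485 against 608.4 CPM and 1687 against 817.9 CPM. Against the resident-like gate 14 of 23 were at least 2-fold higher in both libraries, where 1.18% of all genes were. The lists were chosen with the gene programme of these cells known.

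**Figure D3:**
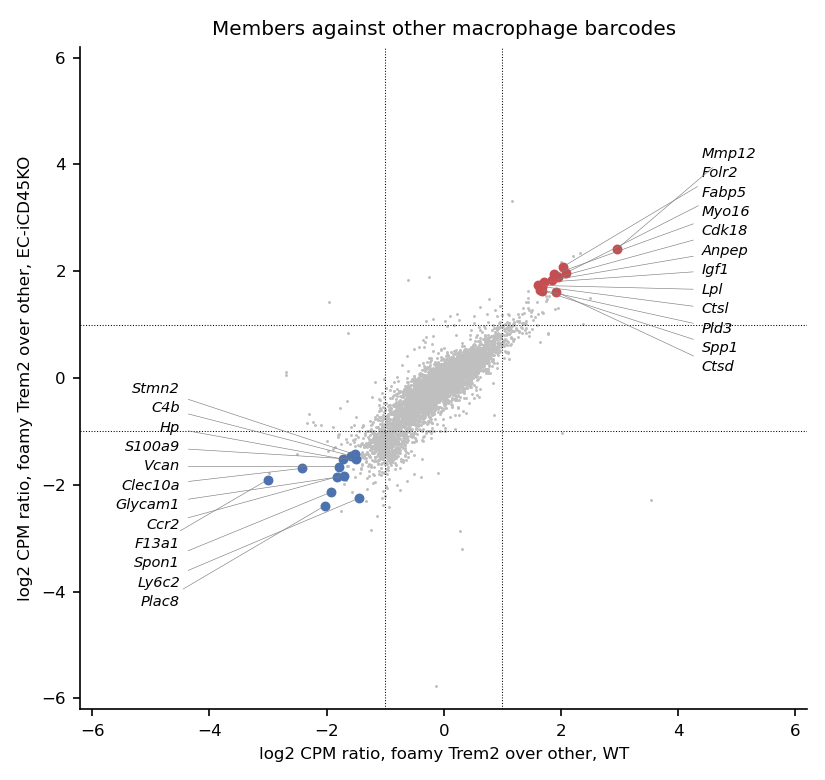
Log2 CPM ratio of foamy Trem2 macrophages over the other macrophage-criterion barcodes in WT (x axis) and EC-iCD45KO (y axis); each grey point is 1 gene, coloured points are the 12 highest and 12 lowest genes by the smaller ratio, and dotted lines mark 2-fold. Mmp12 lies at 2.96 and 2.42, and Plac8 at -2.03 and -2.39.

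Lysosomal genes were mostly higher in members. Of 33 hydrolases and membrane proteins, 31 had ratios above 0 in both libraries and 9 were at least 2-fold higher, with medians of 0.90 in WT and 0.70 in EC-iCD45KO. Of all 8623 genes 2800 were above 0 in both libraries and 0.777% at least 2-fold higher. Ctsd, the aspartic protease cathepsin D, stood at 2893 CPM in WT members and 765.3 CPM in the others, and at 3085 and 1006 CPM in EC-iCD45KO. Ctsb, a cysteine protease, stood at 5348 against 1532 CPM and 6121 against 2107 CPM. Lipa, the acid lipase that frees cholesterol from esters, stood at 214.1 against 76.17 CPM and 208.6 against 88.75 CPM. All 16 subunits of the V-ATPase, the pump that acidifies the lysosome, had ratios above 0, none of them 2-fold, with medians of 0.60 and 0.51. The monocyte-derived gate was closer to members, with 9 of the 16 ratios above 0 and 6 below 0 in both libraries, and medians of 0.13 and 0.21. Summed, the 16 subunits stood at 4603 CPM in WT members and 4345 CPM in the WT monocyte-derived gate, and at 5361 and 4634 CPM in EC-iCD45KO. Without barcodes that held 2 markers of another type the lysosomal medians were 0.57 and 0.53.

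Many lysosomal promoters carry an E-box of the CLEAR type, a short palindrome that TFEB and related factors bind, so the promoters of the list were read from RefSeq (GRCm38.p6). The 250 bases before the gene start held CACGTG in 9 of 26 lysosomal genes with a promoter entry (34.62%) and in 2 of 12 V-ATPase genes (16.67%). It was held by 6.86% of 27025 genes with a promoter entry and by 10.28% of the 6614 such genes with at least 10 CPM in members. A gene with several entries counted if any of them held the letters. For Ctsa and Lgmn not every entry did. TCACGTG, read on both strands and overlapping CACGTG, was in 8 of the 26 (30.77%), against 6.184% of the expressed genes. The full CLEAR-type core, TCACGTG with G before it and AC after it, was in 0 of 26 lysosomal and 0 of 12 V-ATPase genes, against 0.6653% of the expressed genes. Of the genes of cholesterol synthesis, which were not higher in members, 4 of 16 with an entry held CACGTG. None of 4 T genes with an entry held CACGTG. These counts are of letters in a window, not of bound sites. The promoters shown are those of 6 matching genes of lysosome, pump and ester hydrolysis, whose levels follow, and capitals mark the E-box in the coding-strand sequence.
Ctsd: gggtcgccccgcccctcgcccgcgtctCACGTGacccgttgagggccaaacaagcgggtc
Mcoln1: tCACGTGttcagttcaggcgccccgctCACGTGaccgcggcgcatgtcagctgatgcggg
Gla: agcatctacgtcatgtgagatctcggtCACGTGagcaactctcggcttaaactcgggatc
Glb1: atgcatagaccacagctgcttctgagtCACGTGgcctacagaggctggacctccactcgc
Atp6v0b: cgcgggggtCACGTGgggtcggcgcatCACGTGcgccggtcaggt
Nceh1: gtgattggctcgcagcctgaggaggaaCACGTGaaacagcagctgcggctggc

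In order, these windows lie at chr7:142387893-142387952 (minus strand), chr8:3500447-3500506 (plus), chrX:134601167-134601226 (minus), chr9:114401003-114401062 (plus), chr4:117887330-117887374 (minus) and chr3:27182951-27183003 (plus). Their genes did not move alike. Against the other macrophage barcodes, Ctsd had log2 ratios of 1.92 in WT and 1.62 in EC-iCD45KO. Atp6v0b, a V-ATPase subunit, had 0.85 and 0.61. Nceh1, a cholesterol ester hydrolase, had 0.74 and 0.73. Glb1, the lysosomal galactosidase, had 0.34 and 0.40, and Gla, another galactosidase, 0.11 and 0.25. Mcoln1, a lysosomal calcium channel, had 0.58 and 0.29 at 10.0 and 10.3 CPM. So carrying the E-box did not go with one size of ratio among these 6 genes.

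Cholesterol handling was uneven. Of 21 genes of cholesterol efflux, esterification and LXR response, 2 were at least 2-fold higher in members in both libraries and 1 was lower, with medians of 0.36 in WT and 0.19 in EC-iCD45KO. Of all genes 0.777% were higher and 4.02% lower by that measure. Pltp, phospholipid transfer protein, stood at 747.2 CPM in WT members against 348.6 CPM in the others, and at 1090 against 476.1 CPM in EC-iCD45KO. Abcg1, a cholesterol exporter, stood at 216.5 against 120.5 CPM and 267.0 against 133.6 CPM. Abca1, the other exporter, stood at 259.8 against 193.9 CPM and 358.3 against 296.7 CPM, ratios of 0.42 and 0.27. Apoc2, an activator of lipoprotein lipase, was the lower one, at 11.4 against 34.25 CPM and 44.5 against 93.30 CPM.

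Of 23 listed genes of cholesterol synthesis and uptake 10 averaged at least 10 CPM, none of these reached 2-fold, and the medians were -0.26 and -0.45. None of 10 scavenger receptor genes with that average, of 16 listed, reached 2-fold either. Cd36, a receptor for oxidised LDL, was lower in members at 92.56 against 136.9 CPM in WT and 102.8 against 148.0 CPM in EC-iCD45KO. Plin2, the coat protein of lipid droplets, was higher in members, at 399.9 against 243.6 CPM and 657.5 against 431.3 CPM. It was lower than in the monocyte-derived gate, which had 607.8 and 865.6 CPM. Of 18 fatty acid uptake and lipid droplet genes, 9 were above 0 and 7 below 0 against the other macrophage barcodes in both libraries. Their medians were 0.16 and 0.03. Of all 8623 genes 2800 were above 0 and 4608 below 0.

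Antigen presentation genes set members apart from the resident-like gate. Of 8 MHC class II genes 7 were at least 2-fold lower in members than in that gate in both libraries, where 1.89% of all genes were, with medians of -1.56 in WT and -1.80 in EC-iCD45KO. For H2-Aa, a class II chain, WT members had 1558 CPM (1535 to 1580) and the resident-like gate 5274 CPM, and in EC-iCD45KO these were 2221 CPM (2201 to 2241) and 7933 CPM. Cd74, the invariant chain, stood at 5878 CPM in WT members and 6899 CPM in EC-iCD45KO members, below the resident-like gate in both libraries. Ciita, the class II regulator, stood at 20.8 against 62.21 CPM and 16.1 against 76.52 CPM. Against the monocyte-derived gate 0 of the 8 genes were at least 2-fold lower in both libraries, where 3.53% of all genes were. The medians there were -0.24 in WT and -0.14 in EC-iCD45KO. Summed, the 8 genes stood at 9934 CPM in WT members against 11770 CPM, and at 12504 against 13458 CPM in EC-iCD45KO. The low class II level was thus shared with the monocyte-derived gate. B cells also express these genes, and all 6 B cell markers were lower in members than in the resident-like gate in both libraries, none by 2-fold in both. Dendritic cells express them strongly, and of 3 dendritic markers that averaged at least 10 CPM 2 were at least 2-fold lower in members than in that gate in both libraries, with medians of -1.17 and -1.43. The 8 dendritic markers summed to 63.69 and 56.48 CPM in members and 84.49 and 87.51 CPM in the resident-like gate, and their part in the class II values was not tested. Against the other macrophage barcodes the class II medians were -1.02 and -1.23, and without barcodes that held 2 markers of another type they were -1.88 and -1.51. Dendritic markers were not part of that filter.

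Interferon-response genes were lower in members as well. All 15 had ratios below 0 against the other macrophage barcodes in both libraries and no gene was past 2-fold in both libraries at once, with medians of -0.81 in WT and -0.53 in EC-iCD45KO. Of all 8623 genes 4608 were below 0 in both libraries, with a median of -0.10 in each. Isg15, a ubiquitin-like protein, stood at 157.7 CPM in WT members against 336.0 CPM, and at 121.9 against 179.5 CPM in EC-iCD45KO. Irf7, a transcription factor, stood at 59.75 against 122.3 CPM and 47.57 against 69.19 CPM. Monocyte genes outside the rule were lower in 9 of 11 by 2-fold or more, with a median of -1.66 in each library, beside 4.02% of all genes. Ccr2, the chemokine receptor of inflammatory monocytes, stood at 24.3 against 86.07 CPM in WT and 53.32 against 192.3 CPM in EC-iCD45KO. F13a1, coagulation factor XIII, had ratios of -3.01 and -1.91. Against the monocyte-derived gate 11 of 12 monocyte genes were at least 2-fold lower in members, beside 290 of all 8210 genes (3.53%), while 235 (2.86%) were higher.

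As a list, inflammatory cytokine genes differed little from the pooled other macrophage barcodes, but most were lower than in the resident-like and monocyte-derived gates. The medians of 19 genes were -0.21 in WT and -0.14 in EC-iCD45KO, and no gene passed 2-fold in both libraries. TMM scaling adds more than the second of these, so its direction was not fixed. Il1b, interleukin-1 beta, stood at 227.6 CPM in WT members against 291.0 CPM in the others, and at 310.1 against 665.4 CPM in EC-iCD45KO. Against the monocyte-derived gate it was lower, at 1012 and 1252 CPM there. Cxcl2, a neutrophil chemokine, stood at 1319 and 2698 CPM in members, against 4196 and 6207 CPM in the monocyte-derived gate. Tnf went the other way, at 221.5 and 252.1 CPM in members and 195.3 and 235.1 CPM in the monocyte-derived gate. Against that gate 13 of the 19 genes were below 0 and 3 above 0 in both libraries, with medians of -0.99 and -0.49. Of all 8210 genes 3231 were below 0. Against the resident-like gate 15 were below 0 and 3 above 0, with medians of -0.45 and -0.51. Of all 8472 genes 4121 were below 0. Early-response genes, known to be induced by tissue digestion, summed to 6771 CPM in WT members against 7868 CPM in the other macrophage barcodes, and to 7014 against 8680 CPM in EC-iCD45KO.

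Among the 12 genes lowest in members, Spon1, Glycam1, C4b and Stmn2 stood beside monocyte and neutrophil genes such as Plac8, Hp, S100a9 and Ly6c2 (near-identical to Ly6c1). Plac8 had ratios of -2.03 and -2.39. The other macrophage barcodes also held more RNA of structural cells. Their smooth muscle markers summed to 1360 CPM in WT and 3058 CPM in EC-iCD45KO, against 492.2 and 1302 CPM in members. The 7 smooth muscle markers were all at least 2-fold lower in members in both libraries, beside 4.02% of all genes. The part of that RNA in the low genes was not tested.

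Members varied widely among themselves. Spp1 in single WT members ran from 81.3 CPM at the 10th percentile through a median of 2762 CPM to 20438 CPM at the 90th percentile, and in EC-iCD45KO from 150 through 3600 to 27120 CPM. Trem2 ran from 146 through 863 to 2446 CPM in WT and from 124 through 856 to 2005 CPM in EC-iCD45KO. Mmp12 was not seen in 77.49% of WT and 78.59% of EC-iCD45KO members. H2-Aa ran from 0 through 692 to 4334 CPM in WT and from 0 through 778 to 7479 CPM in EC-iCD45KO. The part of counting error in these ranges was not tested.

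To see how other genes went with the number of T genes, the UMIs of every barcode were split at random into 2 sets of equal chance. The gate was read in 1 set and the levels in the other. Spp1 stood at 6236, 10760, 16651 and 24401 CPM in WT barcodes with 2, 3, 4 and 5 or 6 T genes, and at 7047, 10591, 14812 and 24316 CPM in EC-iCD45KO. Mmp12 stood at 138, 440, 1013 and 2204 CPM in WT and at 186, 231, 277 and 821 CPM in EC-iCD45KO. Spp1 thus went up with T genes by similar steps in both libraries, whereas Mmp12 was lower in EC-iCD45KO in all but the first stratum. The strata held 975, 475, 189 and 68 WT and 1270, 832, 414 and 166 EC-iCD45KO barcodes.

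Lysosomal RNA was higher at the top of this series than at its foot. The lysosomal genes summed to 21732 CPM at 2 T genes and 57261 CPM at 5 or 6 in WT, and to 24653 and 53207 CPM in EC-iCD45KO. Fabp5 went from 522 to 4208 CPM in WT and from 817 to 4140 CPM in EC-iCD45KO, and Lpl from 188 to 770 and from 116 to 556 CPM. Cholesterol synthesis genes summed to 342 and 354 CPM in WT and 320 and 279 CPM in EC-iCD45KO at the ends of the same series. H2-Aa went from 1725 to 839 CPM in WT and from 3079 to 1369 CPM in EC-iCD45KO, and Il1b from 307 to 13.4 and from 414 to 123 CPM. RNA of other cells went down too, with Igkc (an antibody light chain) going from 11503 to 469 CPM in WT and Acta2 (smooth muscle actin) from 710 to 152 CPM in EC-iCD45KO. Median UMIs went from 3211 to 10283 in WT and from 3006 to 13881 in EC-iCD45KO, and the part of depth and foreign RNA in these orders was not tested.

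**Figure D4:**
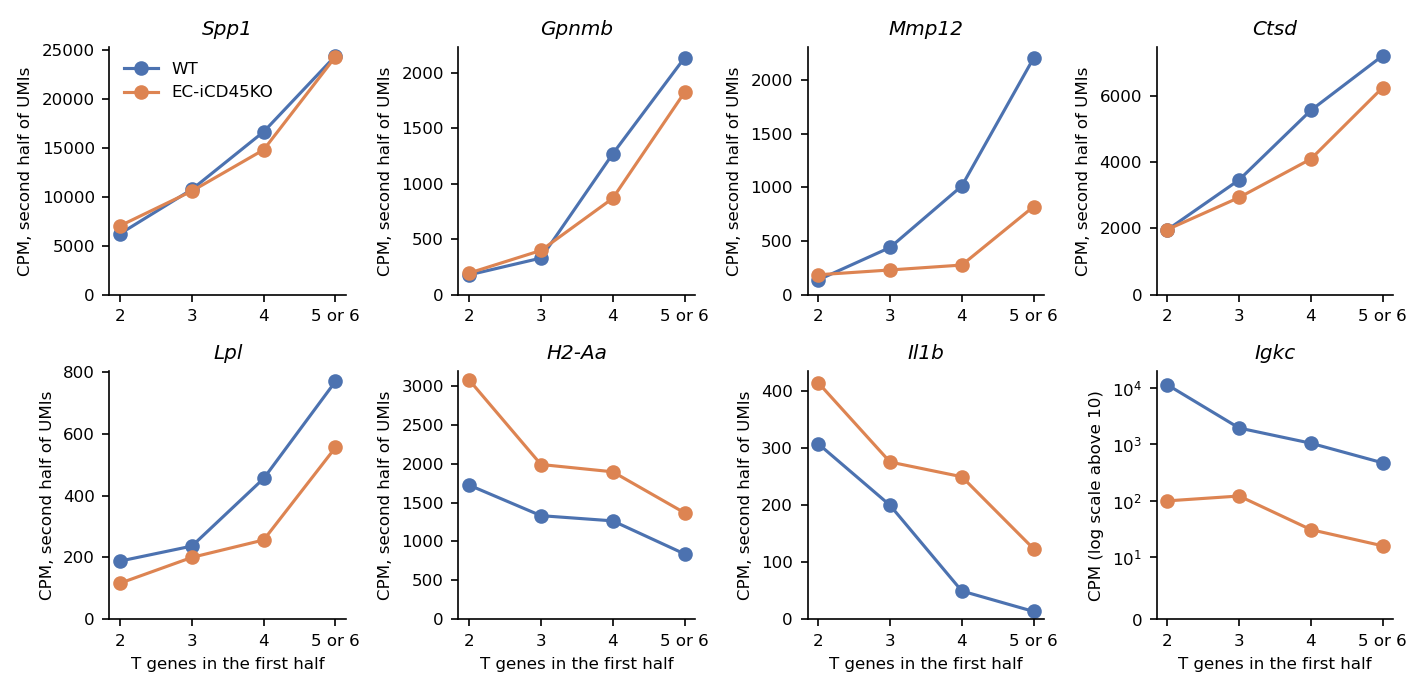
Level (CPM, from the second random set of each barcode's UMIs) of 8 genes by number of T genes with a UMI in the first set; WT blue, EC-iCD45KO orange, Igkc on a log axis above 10 CPM. Spp1 goes from 6236 to 24401 CPM in WT, Mmp12 from 138 to 2204 CPM in WT and from 186 to 821 CPM in EC-iCD45KO, and H2-Aa and Igkc go down.

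The genes whose level went most with that of Trem2 over members were ranked by the smaller of the 2 libraries' Pearson correlations of log CPM, over 2785 and 3760 members and 6078 genes. Ctsb led with 0.488 in WT and 0.394 in EC-iCD45KO. Ftl1, the ferritin light chain, followed with 0.444 and 0.362, then Ctsd with 0.412 and 0.354. The rest of the first 10 were C1qb, C1qc, C1qa, Lyz2, Ms4a7, Ctss and Itm2b, the last with 0.329 and 0.288. These barcodes share a library and differ in depth, the gate used Trem2 and 5 of these genes, and the values are a description.

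Between the libraries, 100 of 8283 genes (1.21%) were at least 2-fold higher in EC-iCD45KO members and 204 (2.46%) at least 2-fold lower, which is 304 (3.67%) either way, with a median log2 ratio of -0.04. Npy, neuropeptide Y (chr6:49822710-49829507), had no UMI in 2785 WT members and 906 UMIs in 305 EC-iCD45KO members, or 41.0 CPM. Set against a floor of 3 UMIs in WT the log2 ratio was 7.35. With counting error it was at least 7.05, and over the alternatives run it lay between 6.07 and 7.43. Leaving out the 10 barcodes richest in Npy left 32.97 CPM. The resident-like gate of EC-iCD45KO had 2.97 CPM, the barcodes outside the macrophage criterion 1.51 CPM and the monocyte-derived gate 1.82 CPM, so members had the highest level of these 4 sets. In WT the same sets, in that order, had 0, 0.044 and 0 CPM. The direction between libraries was thus not limited to members.

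Gdf15, a stress-induced cytokine, went from 36.4 CPM (33.1 to 40.0) in WT to 158.1 CPM (152.9 to 163.5) in EC-iCD45KO members, a log2 ratio of 2.12 (1.98 to 2.27). A UMI was seen in 8.654% and 27.9% of members. In the resident-like gate the ratio was 1.08. Over the alternatives run it lay between 1.76 and 2.33 in members. Ccl7, a monocyte chemokine, had 73.48 CPM in WT and 273.8 CPM in EC-iCD45KO members, with a log2 ratio of 1.90 (1.80 to 2.00), against 0.70 in the resident-like gate. Both were higher in EC-iCD45KO in either gate, and the difference between gates was not tested.

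Gdpd3, a lysophospholipase D, went from 14.1 to 108.9 CPM, a ratio of 2.95. The resident-like gate gave 3.64 and the barcodes outside the macrophage criterion 4.89, so the same direction was seen in each of these sets. Lamtor3, a lysosomal scaffold of MAPK and mTORC1 signalling, gave 2.03 in members, 1.33 in the resident-like gate, 2.10 in the monocyte-derived gate and 1.91 outside the macrophage criterion. Apoc2 gave 1.97 and Apoc1, a related apolipoprotein, 1.88. Slc9a9, an endosomal sodium/proton exchanger, was the reverse. It went from 105 to 0.95 CPM, with UMIs in 794 and 19 members, a ratio of -6.79, against -6.84 in the resident-like gate and -4.67 outside the macrophage criterion. Gdpd3 overlaps the gene model Gm9967 and Slc9a9 overlaps Gm16262, and the counting of such pairs is not given in the sources used here. Both groups are labelled C57BL/6, but how closely the mouse lines match at these loci is not stated, and a difference between the lines and one tied to the CD45 deletion cannot be told apart here.

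Other large ratios were of genes with many UMIs in few barcodes or of genes that other cell types express strongly. Saa3, an acute-phase protein, gave 3.60, but 46.45% of its EC-iCD45KO UMIs lay in 10 barcodes and fibroblast-gated barcodes had 415 and 2080 CPM. Without barcodes with 3 markers of another type or the highest doublet scores it gave -0.16. Ccl21a, a lymphatic chemokine with near-identical copies, had 89.62% of its EC-iCD45KO UMIs in 10 barcodes. Ccl19 gave 2.65 and Lcn2, lipocalin-2, 1.93. Both were far higher in the fibroblast gate, with 849 and 1135 CPM in EC-iCD45KO, and in the same setting they gave 0.65 and 1.11. Col10a1, a cartilage collagen, had 96.02% of its WT UMIs in 1 barcode and none in EC-iCD45KO members. Ibsp, bone sialoprotein, went from 318 to 20.4 CPM beside 6807 and 1110 CPM in the fibroblast gate. Among the other genes with the lowest ratios, Ly6d, Pax5, Cd79a, Bank1, Ms4a1 and Fcmr are genes of B cells and Ripor2 is expressed in lymphocytes. Cd79a, a B cell receptor chain, went from 239 to 7.7 CPM in members and stood at 2501 and 2534 CPM in the B cell gate. Over the 15 alternatives run, which include leaving out barcodes with markers of other types, Cd79a lay between -5.37 and -3.26, Ibsp between -5.00 and -3.21 and Lcn2 between 1.11 and 3.25. The other 6 of these lymphocyte genes also stayed past 2-fold in all 15.

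As lists, lipid-associated and lysosomal genes differed little between libraries. The T genes apart, 1 of 23 lipid-associated genes, Apoc1, was at least 2-fold higher in EC-iCD45KO and none lower, with a median of 0.18, beside 1.21% of all genes higher and 2.46% lower. Lpl and Igf1 had ratios of -0.14 and -0.09, Spp1 0.35, Fabp5 0.56 and Mmp12 -0.59. Of 34 lysosomal genes none was 2-fold higher and 1 lower, with a median of 0.19. Without barcodes that held 2 markers of another type both medians were below 0, at -0.07 for the lipid-associated and -0.05 for the lysosomal genes, so neither list had a stable direction. Ctsl, a cysteine protease, went from 1426 to 2555 CPM (ratio 0.84). Plin2 went from 399.9 to 657.5 CPM, a ratio of 0.72. Fatty acid uptake and lipid droplet genes as a list did not follow it. Of 19 that averaged at least 10 CPM 8 had ratios above 0, with a median of -0.07, beside 3580 of all 8283 genes above 0.

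Among 21 genes of cholesterol efflux and LXR response 2 were at least 2-fold higher in EC-iCD45KO members, none was lower and 16 had ratios above 0, with a median of 0.37. Of all 8283 genes 1.21% were at least 2-fold higher, 2.46% lower and 3580 above 0. The higher genes were Apoc2 and Apoc1. Abca1 went from 259.8 CPM (250.8 to 269.2) to 358.3 CPM (350.4 to 366.2), Abcg1 from 216.5 to 267.0 CPM and Pltp from 747.2 to 1090 CPM. Counted per barcode at 1000 UMIs, 14.65% of WT and 24.41% of EC-iCD45KO members held UMIs of at least 4 of these genes. In the resident-like gate the shares were 9.001% and 14.4%, and outside the macrophage criterion 1.695% and 4.412%. The higher share in EC-iCD45KO was thus seen in all these sets. At full depth the members' shares were 64.02% and 76.41%. Scd1, a stearoyl-CoA desaturase, went down from 45.02 to 24.4 CPM.

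Osteoclast-type genes included 2 that were at least 2-fold lower in EC-iCD45KO members, of 5 that averaged at least 10 CPM and 11 listed, beside 2.46% of all genes. Markers of chondrocytes summed to 106.8 CPM in WT and 34.23 CPM in EC-iCD45KO members, and their part was not tested. Dcstamp, a membrane protein needed for cell fusion, went from 112.8 CPM (106.9 to 119.0) to 9.45 CPM (8.21 to 10.8), a ratio of -3.58 (-3.79 to -3.37), and lay between -3.88 and -3.50 over the alternatives run. Its share of members with a UMI was 22.3% and 3.271%. In the resident-like gate it went from 33.27 to 4.29 CPM. Ctsk, the collagenase cathepsin K, had 193.0 CPM in WT and 90.22 CPM in EC-iCD45KO members, with a log2 ratio of -1.10 (-1.18 to -1.01), while the resident-like gate gave 0.33. Acp5, tartrate-resistant phosphatase, gave 0.30, so the list did not move one way.

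Inflammatory and chemokine genes had mostly higher values in EC-iCD45KO members. Of 19 that averaged at least 10 CPM, of 21 listed, 4 were at least 2-fold higher and 1 lower, 17 had ratios above 0, and the median was 0.38. Of all 8283 genes 1.21% were at least 2-fold higher, 2.46% lower and 3580 had ratios above 0. Neutrophils also make such chemokines, and their 7 markers summed to 82.10 CPM in WT and 199.6 CPM in EC-iCD45KO members, with 2 or more of them in 2.801% and 6.622% of members. The part of neutrophil RNA in these ratios was not tested. Cxcl1, a neutrophil chemokine, went from 112.1 CPM (106.2 to 118.3) to 318.1 CPM (310.8 to 325.7), a ratio of 1.504. Cxcl2 went from 1319 to 2698 CPM (1.03) and Ccl2, the ligand of CCR2, from 139.5 to 352.9 CPM (1.34). Il1b gave 0.45 and Tnf 0.19. Ccl5, a chemokine also made by T cells, went down from 129.7 to 51.37 CPM, but its ratio was 0.22 without barcodes that held 2 markers of another type. Cxcl2 was below 2-fold there, at 0.84. Neutrophil markers were not part of that filter. Of the 14 early-response genes none was 2-fold apart between libraries, and they summed to 6771 CPM in WT and 7014 CPM in EC-iCD45KO members.

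Per barcode at 1000 UMIs, 36.23% of WT and 56.78% of EC-iCD45KO members held at least 4 inflammatory genes. The shares in the resident-like gate were 47.92% and 71.62%, and outside the macrophage criterion 7.501% and 20.12%. The higher share in EC-iCD45KO was therefore shared by the other sets of that library. At full depth the members' shares were 73.68% and 90.13%. Among anti-inflammatory and repair genes 3 of 10 were at least 2-fold higher, Gdf15, Il10 and Vegfa, beside 1.21% of all genes. Il10 went from 12.2 to 25.8 CPM, a ratio of 1.08, and 0.91 without barcodes that held 2 markers of another type. Vegfa, an angiogenic factor, went from 9.62 to 27.9 CPM. Il1rn, the interleukin-1 receptor antagonist, counted here with the inflammatory genes, went from 52.81 to 96.78 CPM without reaching 2-fold.

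Interferon-response genes showed 1 of 15 at least 2-fold higher, 3 above 0 and a median of -0.26. Of all 8283 genes 1.21% were at least 2-fold higher and 3580 above 0, with a median of -0.04. The higher gene was Bst2, tetherin, from 171.7 to 362.3 CPM, while Ifit3 went from 40.8 to 24.1 CPM. MHC class II genes were above 0 in 6 of 8, with a median of 0.34, and 1 was at least 2-fold lower, beside 2.46% of all genes. Ciita and H2-DMb2, a peptide-loading chain, were below 0. H2-DMb2 went from 63.52 to 10.6 CPM, a ratio of -2.59 in members, -2.51 in the resident-like gate, -2.78 in the monocyte-derived gate and -2.35 outside the macrophage criterion, while barcodes gated as B cells had 589.7 and 649.0 CPM. B cell markers in members summed to 673.3 CPM in WT and 33.78 CPM in EC-iCD45KO, and the part of B cell RNA in the H2-DMb2 values was not tested. The partners of Trem2 in signalling differed by far less than 2-fold. Tyrobp went from 2672 to 2955 CPM and Syk from 144.9 to 163.8 CPM.

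Cell-cycle genes were lower throughout the list. Of 15 that averaged at least 10 CPM, of 16 listed, 10 were at least 2-fold lower in EC-iCD45KO members, beside 2.46% of all genes. None had a ratio above 0, as 3580 of all 8283 genes did, with a median of -1.06 that lay between -1.30 and -0.85 over the alternatives run. Top2a, a topoisomerase of dividing cells, went from 47.28 CPM (43.46 to 51.35) to 21.4 CPM (19.6 to 23.5). Mki67, the proliferation marker Ki-67, went from 43.18 to 26.8 CPM, and Birc5, survivin, from 38.4 to 17.4 CPM. Pcna, a replication clamp, was nearly level at 102.0 and 92.98 CPM. Members with at least 3 cell-cycle genes at 1000 UMIs were 3.555% in WT and 1.968% in EC-iCD45KO, against 3.116% and 2.133% in the resident-like gate and 1.156% and 1.066% outside the macrophage criterion. At full depth the members' shares were 10.77% and 9.255%.

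**Figure D5:**
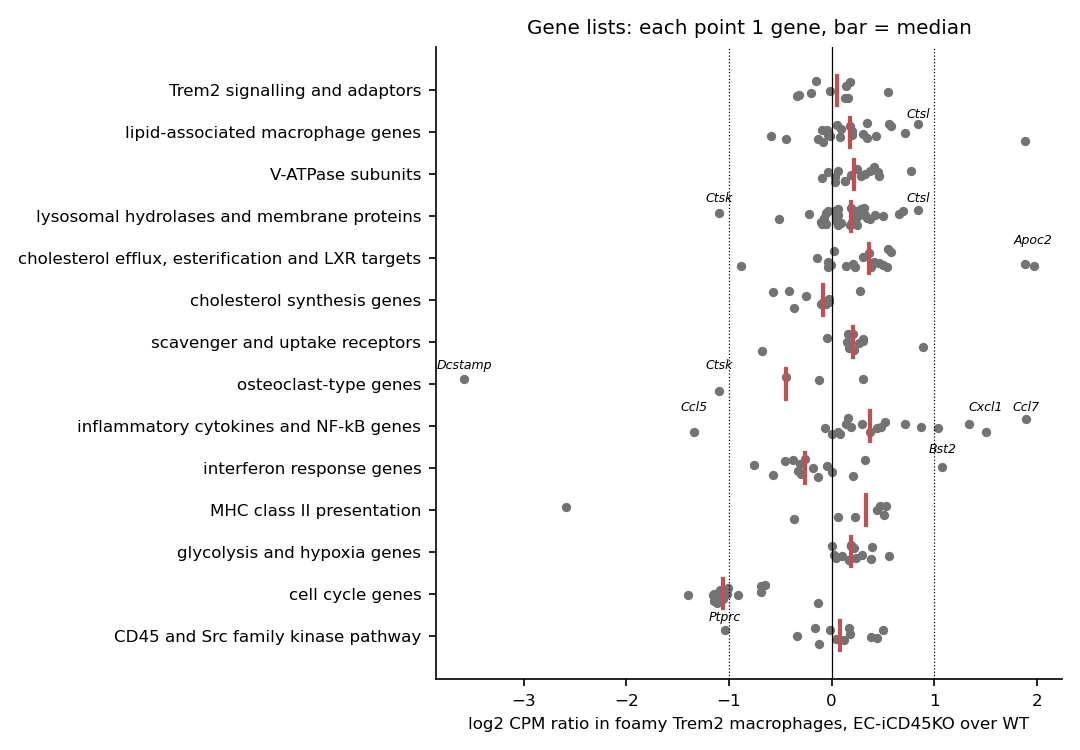
Log2 CPM ratio of EC-iCD45KO over WT in foamy Trem2 macrophages (x axis) for the genes of 14 lists (rows); each point is 1 gene averaging at least 10 CPM, red bars are list medians and dotted lines mark 2-fold. The cell-cycle median lies at -1.06 and the inflammatory median at 0.38; Dcstamp lies at -3.58.

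Ptprc, the gene that the EC-iCD45KO label gives as deleted in endothelial cells, was lower in EC-iCD45KO members. WT members had 454.1 CPM (442.1 to 466.3) and EC-iCD45KO members 221.4 CPM (215.2 to 227.7), and the log2 ratio was -1.04 (-1.09 to -0.98). A UMI was seen in 71.63% and 51.52% of members. The resident-like gate went from 519.9 to 315.2 CPM, the monocyte-derived gate from 705.0 to 376.4 CPM and the barcodes outside the macrophage criterion from 576 to 287 CPM. Barcodes gated as endothelial went from 149.2 to 35.9 CPM and those gated as smooth muscle from 150.6 to 44.82 CPM. At 1000 UMIs Ptprc was seen in 13.84% and 4.5% of the endothelial and in 24.66% and 9.186% of the smooth muscle barcodes, against 36.52% and 18.8% of members. The lower level was thus not limited to the endothelial gate. Barcodes gated as B cells went the other way, from 714.5 to 1227 CPM, and those gated as T/NK cells went from 1085 to 910.6 CPM. The WT library had 6438 B and 2987 T/NK barcodes and the EC-iCD45KO library 325 and 313, so the set outside the macrophage criterion differed in makeup. Without barcodes that held 2 markers of another type the ratio in members was -0.85. Lyn, a kinase that CD45 acts on, stood at 348.8 and 345.1 CPM, a difference within counting error. Of the 12 genes of the CD45 and Src-family list, 1 was at least 2-fold lower, Ptprc, beside 2.46% of all genes.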

How the data were processed

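Single-cell RNA-seq was read from 2 deposited matrices of whole-number counts of UMIs per gene and barcode, not normalized by the authors. Cell Ranger 7.1.0 and the build mm10 are named in the submitters' processing notes. The annotation, intronic counting and strand setting are not given in the sources used here. Gene positions came from GENCODE M21 on GRCm38, which matched 32235 of 32285 gene identifiers. Promoters came from the RefSeq table for GRCm38.p6.

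Members were found as stated in the report. A few genes, 1 of them among the I genes, are not reported here. UMIs were summed over the members of each library and divided by their total (CPM). Poisson intervals, Clopper-Pearson intervals for shares, Newcombe intervals for their difference and exact conditional binomial intervals for ratios cover 95%. A gene counted as higher or lower at 2-fold or more, among genes averaging 10 CPM or more. With 1 library per group there was no test. Shares given as at 1000 UMIs used barcodes thinned to that number. All other shares were read at full depth, which differed between libraries and gates. Doublets were not removed. Scrublet (scanpy 1.11.5) marked 3 of 39581 WT and 0 of 29011 EC-iCD45KO barcodes with its own threshold and so had not worked, and the top 10% of its scores were left out as an alternative. TMM factors were computed with edgeR 4.0.16 (R 4.3.3), and other work used Python 3.11.15, numpy 2.4.6, scipy 1.17.1 and pandas 2.3.3. On simulated counts for the comparison of libraries over 8283 genes, 200 of them changed, 95.41% of intervals held the true ratio. The simulated UMIs were independent, as the intervals assume. They therefore checked the calculation only, and not the intervals of genes whose UMIs gather in few barcodes.

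Between libraries the 10 highest and 10 lowest ratios were named among genes averaging 20 CPM or more, without immunoglobulin, T cell receptor and mitochondrial genes. Against the other macrophage barcodes 12 each way were named by the smaller ratio of both libraries, without the 27 genes of the rule. Genes of the lists, of the rule, Apoe and Ptprc could also be named. The members and lists were chosen with earlier results of these data known. Immunoglobulin genes took 1.429% of UMIs in WT members and 0.1442% in EC-iCD45KO members. The alternatives concerned the UMI and mitochondrial limits, doublet scores, markers of other types, the T genes, a gate on thinned UMIs or on a random set of UMIs, scaling and the CPM minimum.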

Additional observations from a re-analysis of the deposited data

Results flagged for a closer look

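The 4 haemoglobin genes gave opposite directions in 2 gates of the same libraries. In foamy Trem2 macrophages the log2 ratio of EC-iCD45KO over WT was 1.05 for Hbb-bs, 1.29 for Hbb-bt, 1.38 for Hba-a1 and 1.23 for Hba-a2. In the monocyte-derived gate, which held 224 WT and 581 EC-iCD45KO barcodes, it was -4.67, -3.83, -4.57 and -4.83. Summed, the 4 genes went from 4455 CPM in WT to 184.1 CPM in EC-iCD45KO in that gate. The sum also went down in the resident-like gate, from 635.8 to 511.1 CPM, and up in members, from 209.5 to 470.9 CPM. How many barcodes held the WT monocyte-derived UMIs was not examined. The difference between gates was not tested. These genes are near-identical copies in pairs, red blood cells make them in great amounts, and 37.7% of the Hbb-bs UMIs of EC-iCD45KO members lay in 1 barcode.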

How the results depend on the processing

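No paired analysis was possible because there was 1 library in each group. The share of foamy Trem2 macrophages was higher in EC-iCD45KO by 4.619 points. It was higher by 0.6765 points with at least 2000 UMIs, by 2.475 with at least 500 UMIs, by 2.26 without Itgax among the T genes, and by 3.621 without barcodes with 3 markers of another type or a top doublet score, a setting added after the data were seen. Without barcodes that held 2 markers of another type it was -2.559. Genes at least 2-fold higher in EC-iCD45KO members (100) numbered 40 at a minimum of 50 CPM. They numbered 311 with no minimum and 0.5 CPM added to each level. Genes lower (204) numbered 37 and 747 in those settings, 91 without barcodes that held 2 markers of another type and 113 in the added setting. Genes higher in members than in the other macrophage barcodes (67) numbered 40 with a gate on 1000 UMIs, 120 with TMM, 36 as a mean of single barcodes and 37 at 50 CPM. Genes lower (347) numbered 667 with at least 3 T genes, 115 with TMM, 58 as a mean of single barcodes and 81 at 50 CPM. With no minimum and 0.5 CPM added these lower genes numbered 555. The ratio of EC-iCD45KO over WT turned round for Ccl21a (-0.1598) and Ccl5 (0.2243) without barcodes that held 2 markers of another type, and for Saa3 (-0.1626) in the added setting. The cause of these moves was not tested, except that a higher minimum leaves fewer genes. Of 100 single-gene ratios 95 kept their sign in every setting run, and of 75 list medians 46 did. With 1 library each, counting depth sets the intervals, and the spread between mice is not measured.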

Other observations

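Genes of glycolysis and hypoxia placed members between the resident-like and the monocyte-derived gate. The 14 genes had medians of 0.45 in WT and 0.43 in EC-iCD45KO against the resident-like gate, and of -0.60 and -0.56 against the monocyte-derived gate, where 13 of 14 ratios were below 0 in both libraries, as were 3231 of all 8210 genes. Pkm, a pyruvate kinase, stood at 616.4 and 703.2 CPM in members, at 308.9 and 360.6 CPM in the resident-like gate and at 1025 and 1113 CPM in the monocyte-derived gate. Hif1a, the hypoxia-inducible factor, stood at 88.29 and 130.1 CPM in members and at 305.4 and 392.8 CPM in the monocyte-derived gate. Between libraries all 14 ratios were above 0 with none past 2-fold, and the median was 0.19, beside 3580 of all 8283 genes above 0 and 1.21% at least 2-fold higher.

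Genes that handle iron and dying cells were mixed. Hmox1, haem oxygenase, went from 67.54 CPM in WT members to 147.1 CPM in EC-iCD45KO members, a log2 ratio of 1.12 (1.01 to 1.24), while the resident-like gate gave 0.14. Mfge8, a bridge between macrophages and dying cells, had 204.9 CPM in WT and 70.05 CPM in EC-iCD45KO members, a log2 ratio of -1.55 (-1.64 to -1.46), against -0.35 in the resident-like gate. Mertk, a receptor for dying cells, gave 0.26 and Axl, a related receptor, -0.04. Ftl1, the ferritin light chain, was higher in members than in the other macrophage barcodes by 1.04 in WT and 0.91 in EC-iCD45KO. These differences between gates were not tested.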
